A study of Mus musculus with 8 samples.

Results

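Mature enterocytes low in Fabp6 were 1426 of 28750 cell barcodes from sorted small intestinal crypt cells, 796 in the WT matrix and 630 in the KO matrix. They were chosen by measured values. A cell had to hold at least 1500 UMIs (molecular barcodes, so that 1 UMI is 1 transcript caught), at least 200 genes, at most 30% of UMIs from mitochondrially encoded genes and under 20% from genes whose symbol starts with Defa (Paneth cell defensins). Of its UMIs at least 3% had to come from the 7 genes Fabp1, Fabp2, Apoa1, Apoa4, Apoc3, Rbp2 and Sis, under 1% from Fabp6, and under 0.2% from Ada, Slc28a2, Clca4a and 2010109I03Rik, which mark villus tips. Levels of these 12 genes are therefore given as a description only. The shares from mitochondrially encoded genes and from defensins were limited too, so their levels are also a description.

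The WT group was H11 i.enh mice, which carry a reporter driven by the enhancer ieCtnnb1 at the H11 locus and are not plain wild type. The KO group was Ctnnb1 Δi.enh mice, in which ieCtnnb1, an enhancer upstream of Ctnnb1, was deleted on both alleles by gene editing. All were untreated adult C57BL/6 females, and EpCAM+ DAPI- cells were sorted from EDTA-released crypts of the small intestine, with no segment named. The labels list 4 samples per group, but each group was deposited as 1 matrix without a map from cells to samples, and the study's legends differ on how many animals were pooled. Each group is therefore 1 sample, no difference between the genotypes has a replicate check or a p-value, and every interval below is a 95% interval for counting error only.

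Enterocytes are the absorptive cells of the intestinal epithelium. They are born in crypts, move up the villus within days and are shed at its tip, and on the way they turn from antimicrobial gene programmes at the villus bottom to lipid handling and then to tip programmes. They also differ along the gut, with iron, calcium and folate uptake in the duodenum and bile acid and vitamin B12 uptake in the ileum. Fabp6, a cytosolic bile acid carrier, marks ileal enterocytes, while Fabp1 (a liver-type fatty acid carrier) and Rbp2 (a retinol carrier) are typical of more proximal ones.

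The name was checked against 5 markers, of which Fabp1, Rbp2 and Sis had been used by the rule. Levels are given as CPM, the UMIs of a gene per 1000000 UMIs summed over the cells of a group, and where 2 levels stand together without a label the WT level comes first. Fabp1 stood at 19647 CPM in WT and 19095 CPM in KO, Rbp2 at 12015 CPM in WT and 14171 CPM in KO and Sis, the brush border sucrase-isomaltase, at 2274 CPM in WT and 1577 CPM in KO. Of the markers outside the rule, Gsta1, a glutathione transferase, had 1859 CPM in WT and 1462 CPM in KO, against 40.8 and 18.8 CPM in tuft cells of the same matrices. Reg1, a secreted lectin of the Reg family, had 5530.5 CPM in WT and 2628 CPM in KO, against 40.8 and 56.5 CPM in tuft cells. Tuft cells should lack enterocyte products and served as the measure of free RNA. There were 56 of them in WT and 23 in KO, so that 1 UMI in that reference is worth 4.53 CPM in WT and 9.42 CPM in KO. For the rule genes the distance to tuft cells was fixed by the choice of cells. Summed over cells, Gsta1 and Reg1 were above the tuft level in both genotypes, but the median KO cell had 79.7 CPM of Reg1, close to the tuft level, so Reg1 marked only some of the KO cells. Tuft cells had a median of 3068.5 UMIs in WT and 2868 UMIs in KO, fewer than the enterocytes. Gsta1 is uncertain against its near-identical copy Gsta2 (9.52 and 4.68 CPM), since reads of such copies can be split between them.

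Products of other cell types were present in a pattern that moved with genotype. Paneth cell markers, such as the defensin Defa24 and the lysozyme Lyz1, summed to 37514 CPM in WT and 21578 CPM in KO in the enterocytes and to 49622 and 36429 CPM in tuft cells. Goblet cell markers summed to 6518 CPM in WT and 5275 CPM in KO, against 20724 and 10545 CPM in tuft cells. Enteroendocrine markers summed to 135 CPM in WT and 96.4 CPM in KO, stem cell markers to 48.8 CPM in WT and 41.9 CPM in KO and mitotic markers to 68.04 CPM in WT and 71.8 CPM in KO. Tuft cell markers summed to 9.29 CPM in WT and 28.6 CPM in KO. Lymphocyte markers had 1 UMI in WT and 2 UMIs in KO, with 6 of 8 genes at 0 in both, and stromal, endothelial and erythroid markers had 2 UMIs in WT and 0 in KO. Fabp6 itself stood at 129 CPM in WT and 457 CPM in KO, against 236 and 386 CPM in tuft cells, and at least 1 UMI of it was found in 28.3% and 84.8% of the enterocytes and in 26.8% and 91.3% of the shallower tuft cells. The median cell had 0 CPM of Fabp6 in WT and 223 CPM in KO, and the 10% of cells richest in it held 73.7% of its UMIs in WT and 60.7% in KO. Single cells reached 9198 CPM in WT and 9907 CPM in KO, close to the 1% limit of the rule.

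The chosen cells held 4306151 UMIs in WT and 5986152 UMIs in KO. The median cell held 5467 UMIs in 1872 genes in WT and 9486 UMIs in 2216.5 genes in KO, so that single genes are measured more precisely in KO. The median share of mitochondrial UMIs was 11.1% in WT and 8.93% in KO, with an upper quartile of 13.4% in WT and 15.8% in KO. The matrices shared 57 barcodes, among them 3 of the WT and 2 of the KO enterocytes described here, and none of these belonged to both sets. No doublet caller was run here and doublets were not removed, while the study called doublets with DoubletFinder, whose calls were not used here. The effect of leaving out the deepest cells and cells with products of other types is given under the dependence on processing.

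Mature enterocytes low in Fabp6 made up 7.52% (7.02% to 8.04%) of the 10588 WT cells with at least 1500 UMIs, at least 200 genes and at most 30% mitochondrial UMIs, and 10.7% (9.93% to 11.5%) of the 5881 such KO cells. They were nearly all of the enterocytes in WT but not in KO. Of all cells with at least 3% of UMIs from the 7 genes and under 20% from defensins (811 in WT and 863 in KO), they were 98.2% (97.0% to 99.0%) in WT and 73.0% (69.9% to 75.9%) in KO. Enterocytes with Fabp6 at 1% or more and the 4 tip genes under 0.2% were 12 cells (1.48%, 0.767% to 2.57%) in WT and 153 cells (17.7%, 15.2% to 20.4%) in KO. Enterocytes with the 4 tip genes at 0.2% or more, whatever their Fabp6, were 3 cells (0.370%, 0.0764% to 1.08%) in WT and 80 cells (9.27%, 7.42% to 11.4%) in KO. Cells were sorted on EpCAM before loading, and with 1 matrix per genotype a difference in the sort and a difference in the tissue cannot be told apart.

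Few cells lay near the Fabp6 limit, whereas the limit on the 7 genes cut through a continuous range. The KO cells closest to the Fabp6 limit held 0.741% to 0.991% on the inside and 1.01% to 1.15% on the outside, and the WT cells 0.472% to 0.920% and 1.09% to 3.24%. For the 7 genes, the WT cells just inside held 3.01% to 3.02% and those just outside 2.96% to 2.998%. The median over the chosen cells was 5.55% in WT and 9.02% in KO, so the KO cells lay further above this limit.

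**Figure D1:**
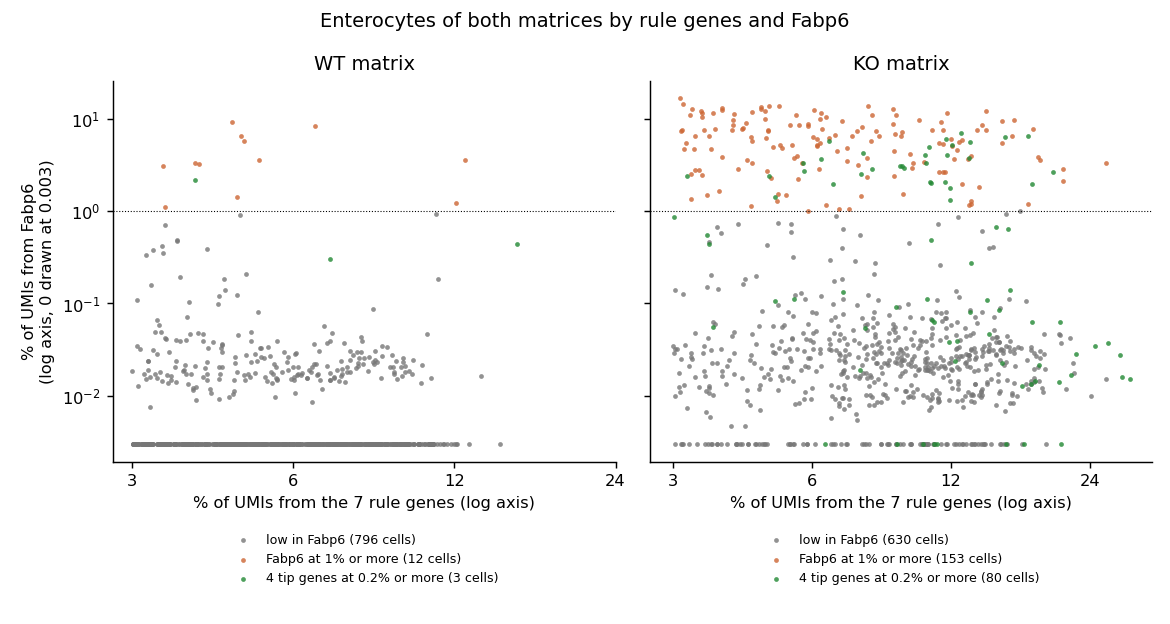
Each point is 1 enterocyte of the WT (left) or KO (right) matrix, with its share of UMIs from the 7 rule genes on the horizontal axis and its share from Fabp6 on the vertical axis (both log axes, cells without a Fabp6 UMI drawn at 0.003%). Grey points are the 796 WT and 630 KO cells described here. Orange points are the 12 and 153 cells at or above the Fabp6 limit of 1% (dotted line) but under the limit of the 4 tip genes. Green points are the 3 and 80 cells at or above the limit of the 4 tip genes, whatever their Fabp6.

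The gene next to the deleted enhancer was looked at first. Ctnnb1 (ENSMUSG00000006932, chr9:120929216-120960507, plus strand, GRCm38, GENCODE M21) encodes β-catenin, the transcriptional effector of canonical Wnt signalling and a part of cell junctions. It stood at 204 CPM (95% interval 191 to 218) in WT and 109 CPM (101 to 118) in KO, from 879 and 653 UMIs (log2 ratio -0.90, -1.05 to -0.76). In the tuft reference it had 213 and 188 CPM. After each cell was thinned to 1500 UMIs, at least 1 Ctnnb1 UMI was found in 25.8% of WT cells (22.7% to 28.9%) and 15.6% of KO cells (12.8% to 18.6%). Before thinning it was found in 63.3% and 60.3% of the enterocytes and in 50% and 39.1% of tuft cells. The level in KO was lower than in WT but did not reach the 2-fold limit. The ratio is to be read beside the median log2 ratio of all measured genes, which was -0.33. Both levels lay below those of tuft cells. Whether tuft cells make this transcript themselves was not tested, nor was the part of free RNA in the enterocyte levels and in their difference.

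Across all 7778 genes with at least 50 UMIs over both sets of cells, the median log2 ratio of KO to WT was -0.33. A gene is called higher or lower below where the ratio was at least 2-fold and its interval was clear of 0. By this rule 153 genes (1.97%) were called higher and 1342 genes (17.3%) lower in KO. These shares are the background against which each list below is read. The ratio moved with gene length. When the genes were cut into 4 classes of like size, the median was 0.19 for the 1944 genes with the shortest summed exons (up to 2673 bases) and -0.86 for the 1943 with the longest (from 6841 bases), and the part of length in any single value was not tested.

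Lectins of the Reg family were among the most abundant genes outside the rule that differed 2-fold. Reg3b and Reg3g, C-type lectins that act on bacteria at the mucosal surface, were both higher in KO, and Reg1, a relative encoded between them, was lower. The 3 genes lie within one cluster on chromosome 6, Reg3b at chr6:78370657-78373466, plus strand, Reg1 at chr6:78422711-78428667, plus strand and Reg3g at chr6:78466269-78468872, minus strand (GRCm38, GENCODE M21). For Reg3b and Reg1 the GENCODE span begins upstream of the RefSeq start used here. Since they are neighbours that differed in direction, the 120 bases before their RefSeq transcription starts are shown, read from GRCm38.p6 and written 5′ to 3′ on the strand of each gene. They span chr6:78370765-78370884 (plus strand) for Reg3b, chr6:78425863-78425982 (plus strand) for Reg1 and chr6:78468875-78468994 (minus strand) for Reg3g, and these genes were picked for printing after their values were seen.
Reg3b: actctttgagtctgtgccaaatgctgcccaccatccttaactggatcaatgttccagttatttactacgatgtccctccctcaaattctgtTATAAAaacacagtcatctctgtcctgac
Reg1: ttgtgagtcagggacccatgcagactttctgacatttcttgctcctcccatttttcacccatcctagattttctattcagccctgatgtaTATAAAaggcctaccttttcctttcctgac
Reg3g: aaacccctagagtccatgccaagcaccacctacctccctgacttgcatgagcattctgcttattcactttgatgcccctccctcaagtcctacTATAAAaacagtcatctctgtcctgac
Capitals mark TATAAA, searched on the strand of the gene in the 250 bases before the start. It begins 29 bases before the start in Reg3b, 30 bases in Reg1 and 27 bases in Reg3g, and 7.59% of 32851 RefSeq promoters hold it there. In a global alignment of the printed stretches 88 of 123 positions were the same between Reg3b and Reg3g (71.5%), against 70 of 128 between Reg3b and Reg1 (54.7%) and 63 of 126 between Reg3g and Reg1 (50%). The pair that moved together was thus the more alike in these letters, which is a description and says nothing of their control.

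Reg3b stood at 7102 CPM in WT and 33121 CPM in KO (log2 ratio 2.22, 2.20 to 2.24), and single cells had a median of 2581 CPM in WT (quartiles 507 and 8400.5, highest 78952) and 15990 CPM in KO (quartiles 3941 and 45933, highest 156850). Reg3g stood at 2449 CPM in WT and 10646 CPM in KO (log2 ratio 2.12, 2.09 to 2.15), with a median over cells of 987 CPM in WT (quartiles 310.1 and 3169, highest 22683) and 5033 CPM in KO (quartiles 1806 and 12640, highest 72685). The levels of single cells overlapped widely between the genotypes for both genes, and the shift was in the whole distribution. Tuft cells had 227 and 649.7 CPM of Reg3b and 295 and 537 CPM of Reg3g, which is far below the enterocytes of either matrix. After thinning, Reg3b was found in 78.9% of WT cells (75.9% to 81.7%) and 95.2% of KO cells (93.3% to 96.8%), but before thinning it was found in 58.9% and 100% of tuft cells as well, so its detection says little and its level is the measure. Within a matrix the 2 genes went together over cells, with a Spearman correlation of 0.66 in WT and 0.82 in KO over 796 and 630 cells that share a library and a denominator.

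Reg1 stood at 5530.5 CPM in WT and 2628 CPM in KO (log2 ratio -1.07, -1.10 to -1.04), and its median over cells was 2130.5 CPM in WT (quartiles 181 and 7154, highest 50874) and 79.7 CPM in KO (quartiles 0 and 978, highest 57796). It was found after thinning in 66.1% of WT cells (62.7% to 69.4%) and 35.1% of KO cells (31.4% to 38.9%), and before thinning in 78.1% and 51.3% of the enterocytes and in 16.1% and 26.1% of tuft cells. The KO level rested on few cells, since the 10% of cells richest in it held 48.2% of its UMIs in WT and 79.3% in KO. The other measured family members were Reg3a (533 and 783 CPM, log2 ratio 0.56) and Reg4 (131 and 45.6 CPM, log2 ratio -1.52), of which Reg4, a marker of enteroendocrine and goblet lineages, was called lower. Reg4 was below the tuft cell level of 154 and 151 CPM, so nothing can be read from it for enterocytes. Reg2 had 0 UMIs in both sets.

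In the list of antimicrobial lectins and barrier defence, 6 of 14 measured genes were called higher in KO and 3 lower, beside 1.97% and 17.3% of all genes (median log2 ratio 0.41). Besides Reg3b and Reg3g, the genes called higher were Nos2, the inducible nitric oxide synthase (3.02 and 23.6 CPM, log2 ratio 2.96), Duoxa2, the maturation factor of the hydrogen peroxide producing oxidase Duox2 (1.86 and 21.4 CPM, log2 ratio 3.52), the acute-phase protein Saa1 (0.929 and 11.9 CPM, log2 ratio 3.67) and Tmigd1. Nos2, Duoxa2 and Saa1 were at most 23.6 CPM in KO and had 4 to 13 UMIs in WT, whereas Duox2 itself was at 10.7 and 12.5 CPM with an interval across 0. The genes called lower were Reg1, Pigr, the receptor that carries secretory antibody across the cell (3979 and 1445 CPM, log2 ratio -1.46), and the inflammasome sensor Nlrp6 (289.6 and 114 CPM, log2 ratio -1.35). Lypd8 (3829 and 4416 CPM), Ccl25 (965 and 1028 CPM) and Il18 (388 and 469 CPM) were within 2-fold. The villus bottom list holds 9 of the same genes and had 2 called higher and 3 lower (median 0.21). Of villus tip genes outside the rule, 1 of 7 measured genes were called higher and 1 lower (median log2 ratio -0.08), with Pmp22, a membrane protein of cell contacts, called higher (1.39 and 37.1 CPM, log2 ratio 4.73) and Fos lower. The tip median was -0.82 and -0.79 in cells with 3 to 6% and 6 to 12% from the 7 rule genes.

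Genes for single mention were taken by size among 484 genes with at least 50 CPM in their higher group and at least 3 times the tuft cell level there, 12 in each direction. The 12 higher genes lay between 1.38 and 3.32 on the log2 scale. Tmigd1, an adhesion protein of microvilli, had the highest ratio of these, with 10.2 CPM in WT and 102 CPM in KO (log2 ratio 3.32, 2.88 to 3.80). It was found after thinning in 0.879% of WT cells (0.354% to 1.80%) and 11.4% of KO cells (9.05% to 14.2%), so a minority of cells held a UMI of it in KO. Before thinning it was found in 2.89% and 27.5% of the enterocytes and 1.79% and 13.04% of tuft cells, and KO tuft cells had 28.2 CPM. Fam151a (9.75 and 87.03 CPM, log2 ratio 3.16), Mbl2, a mannose-binding lectin of the complement pathway (16.5 and 104 CPM, log2 ratio 2.66), and Plb1, a brush border phospholipase (8.59 and 61.98 CPM, log2 ratio 2.85), followed. For Mbl2 the tuft cells of both matrices had 0 UMIs, and for Plb1 they had 0 and 1.

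Slc34a2, a sodium-dependent phosphate transporter, had 22.99 CPM in WT and 89.5 CPM in KO (log2 ratio 1.96, 1.65 to 2.29), and Dnase1, a secreted nuclease, 141 CPM in WT and 373 CPM in KO (log2 ratio 1.40, 1.27 to 1.53). Dnase1 was the most widely found of these apart from the lectins, in 15.7% of WT cells (13.2% to 18.4%) and 37.6% of KO cells (33.8% to 41.5%) after thinning, and tuft cells had 0 UMIs of it in WT and 2 in KO. Dnase1 did not reach 2-fold at like content of the rule genes (log2 ratio 0.98 in cells with 3 to 6% and 0.85 in cells with 6 to 12% from the 7 genes), and Pdlim2 was at 0.50 in the former. The others were Mgat4c, a glycosyltransferase (20.9 and 67.5 CPM, log2 ratio 1.69), Prss30, a serine protease (35.3 and 98.1 CPM, log2 ratio 1.47), Pdlim2 (28.6 and 75.5 CPM, log2 ratio 1.40) and Ocm, the calcium-binding protein oncomodulin (25.1 and 65.5 CPM, log2 ratio 1.38). Other cells passed the quality limits but missed the limit on the 7 rule genes or on defensins, tuft cells among them. There the ratios of the 12 genes ran from 0.86 to 2.77 on the log2 scale, mostly at far lower levels. The share of all genes above 0 in those cells is not given here, and the part of free RNA was not tested.

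The 12 lower genes lay between -1.64 and -2.76. All 12 also had ratios below 0 in the other cells that passed the quality limits, from -1.55 (Gm766) to -0.20 (Slc30a10). S100g (calbindin-D9k, a calcium-binding protein induced by vitamin D) had 577 CPM (95% interval 554 to 599.8) in WT and 85.03 CPM (77.8 to 92.7) in KO (log2 ratio -2.76, -2.90 to -2.62). It was concentrated in few cells of either genotype, since the richest 10% of cells held 82.4% of its UMIs in WT and 88.02% in KO, and the highest WT cell had 40959 CPM. Papss2, which makes the sulfate donor of sulfation reactions, had 980.2 CPM (95% interval 951 to 1010.3) in WT and 210.2 CPM (199 to 222) in KO (log2 ratio -2.22, -2.31 to -2.13). It was more evenly spread over cells, with a median of 718 CPM in WT (quartiles 269 and 1394, highest 5023) and 92.4 CPM in KO (quartiles 0 and 272, highest 1826), and was found after thinning in 62.2% of WT cells (58.7% to 65.6%) and 22.2% of KO cells (19.03% to 25.7%). Both are typical of proximal enterocytes, and both stood above the tuft cell level in each matrix (18.1 and 9.42 CPM for S100g, 67.96 and 0 CPM for Papss2).

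Hnf4g, a nuclear receptor of enterocyte identity, was the most abundant regulator among them, with 256 CPM in WT and 80.02 CPM in KO (log2 ratio -1.68, -1.83 to -1.52). Abcc2, an apical efflux pump for conjugates (135 and 33.9 CPM, log2 ratio -1.99), Bche, butyrylcholinesterase (148 and 41.9 CPM, log2 ratio -1.82), and Slc30a10, a manganese exporter (52.02 and 16.7 CPM, log2 ratio -1.64), had lower levels in KO as well. Kitl, the ligand of the receptor Kit, had 79.2 and 23.6 CPM, log2 ratio -1.75. Others were Arhgap32, a GTPase-activating protein (74.1 and 17.4 CPM, log2 ratio -2.09), the adhesion receptor Adgrg7 (106 and 26.4 CPM, log2 ratio -2.01), the cytolinker dystonin Dst (95.9 and 24.2 CPM, log2 ratio -1.99) and Gm766 (118 and 29.4 CPM, log2 ratio -2.005). The KO levels of Arhgap32 and Adgrg7 were below those of KO tuft cells (37.7 and 28.2 CPM). Of the 24 genes, 11 overlap another annotated gene: Fam151a, Plb1, Slc34a2, Mgat4c, Dnase1, S100g, Arhgap32, Adgrg7, Dst, Hnf4g and Slc30a10. Their reads are uncertain to that extent, because no source used here states whether counting was by strand. Of the 12 higher genes 7 were in the shortest of these 4 length classes, while the 12 lower genes were spread evenly, 3 to a class.

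**Figure D2:**
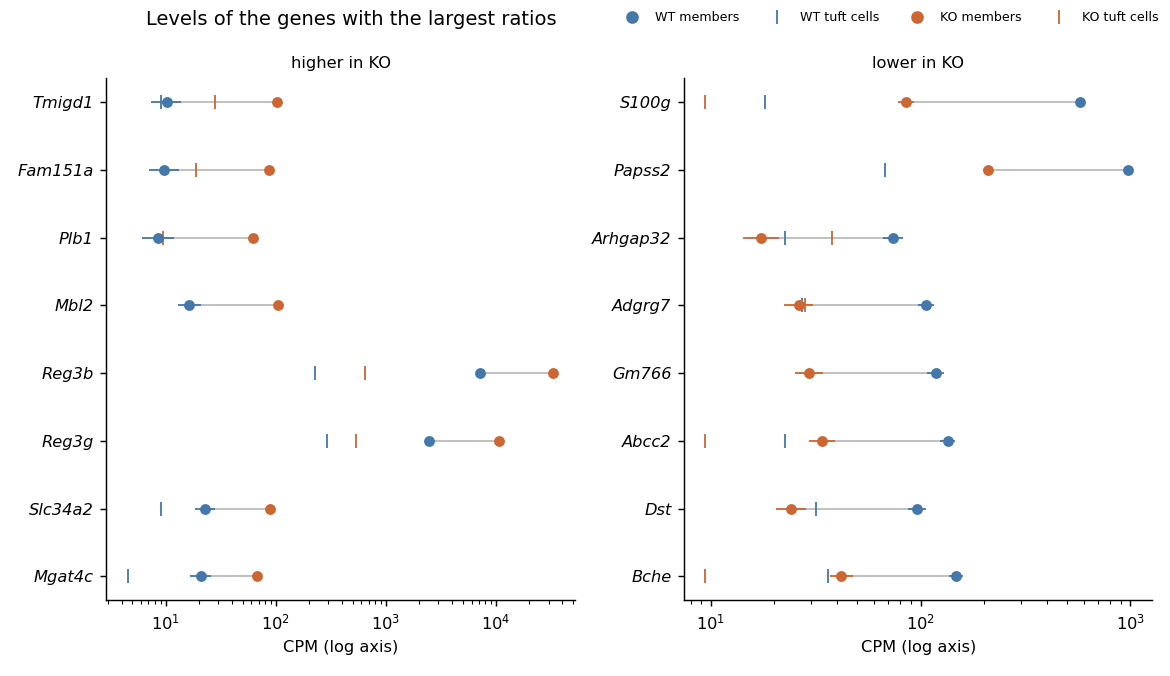
Levels of the 8 genes with the largest and the 8 with the smallest ratio, in CPM on a log axis, for WT (blue) and KO (orange) enterocytes low in Fabp6 (the members). Dots are summed levels with 95% Poisson intervals (counting error) and vertical ticks are the tuft cells of the same matrix where they had a UMI. Reg3b and Reg3g stand far above the rest, and S100g and Papss2 are the most abundant genes with lower levels in KO.

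Lipid handling was dominated in level by rule genes. Of these, the chylomicron apolipoproteins Apoa1 (10136 and 23828 CPM in WT and KO) and Apoc3 (1147 and 3173 CPM) and the fatty acid carrier Fabp2 (11455 and 27406 CPM) were more abundant in KO, while Fabp1 (19647 and 19095 CPM) and Apoa4 (2918 and 3055 CPM) were nearly level, and as rule genes they carry no call. Outside the rule, 0 of 15 measured genes were called higher and 1 lower (median log2 ratio -0.19, against -0.33 for all genes, and -0.64 and -0.29 in the 2 bins of rule gene content described below). The gene called lower was Apob, the scaffold of the chylomicron, with 1476 CPM in WT and 509 CPM in KO (log2 ratio -1.54, -1.60 to -1.47). Mttp, which loads lipid onto it, had 1142 and 621 CPM (log2 ratio -0.88). The triglyceride enzymes Dgat1 (596 and 711 CPM) and Mogat2 (333 and 369 CPM), the sterol transporter Npc1l1 (219.7 and 218 CPM) and the lipid-responsive factor Creb3l3 (265 and 272 CPM) were within 2-fold. In single cells Apoa1 was found in all 796 WT and all 630 KO cells, as the rule favours, with a median of 9544 CPM in WT (quartiles 6466 and 13656, highest 37505) and 23168 CPM in KO (quartiles 16293 and 32558, highest 89172).

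Brush border hydrolases were also close to level. Without Sis, 1 of 16 measured genes were called higher and 2 lower (median log2 ratio 0.07). The genes called lower were the alkaline phosphatases Alpi (309 and 139 CPM, log2 ratio -1.15) and Akp3 (20.2 and 0.835 CPM, log2 ratio -4.60). Akp3 had 87 UMIs in WT and 5 in KO. The aminopeptidase Xpnpep2 was called higher (25.8 and 57.97 CPM, log2 ratio 1.17). Lactase, Lct (358 and 304 CPM), aminopeptidase N, Anpep (847 and 689.8 CPM), and the meprin Mep1b (758 and 821 CPM) were within 2-fold. Of transporters for sugars, peptides and amino acids, 0 of 15 measured genes were called higher and 1 lower (median log2 ratio -0.10), which was the proline transporter Slc6a20a (156 and 61.1 CPM, log2 ratio -1.35). The sodium-glucose cotransporter Slc5a1 (769 and 716 CPM) and the peptide transporter Slc15a1 (121 and 109.6 CPM) were nearly level. The median of the transporters turned positive when cells were weighted equally or thinned (0.05 in both), so no direction is given for this list.

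Genes typical of the 2 ends of the small intestine lay on opposite sides of the median of all genes. For bile acid and distal genes without Fabp6, 4 of 9 measured genes were called higher and 0 lower (median log2 ratio 0.90). The genes called higher were Slc51b, a subunit of the basolateral bile acid exporter (189 and 412 CPM, log2 ratio 1.12), Amn, the amnionless subunit of the receptor that takes up vitamin B12 (100.3 and 224 CPM, log2 ratio 1.16), Prss30, and Slc10a2, the apical bile acid transporter. Slc10a2 was at 0.929 and 10.2 CPM with 1 UMI in KO tuft cells, so its level in KO was near that of free RNA. Slc51a, the partner of Slc51b (241 and 449 CPM, log2 ratio 0.90), and Cubn, the partner of Amn (25.3 and 33.6 CPM, log2 ratio 0.41), did not reach 2-fold, and the bile acid receptor Nr1h4 lay on the other side (37.9 and 27.2 CPM, log2 ratio -0.48). Slc51b was just under 2-fold in both bins of rule gene content (0.98 and 0.90). Tuft cells had 9.06 and 9.42 CPM of Slc51b and 22.7 and 9.42 CPM of Amn.

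For proximal genes without the rule gene Apoa4, 0 of 11 measured genes were called higher and 3 lower (median log2 ratio -0.78). These 3 were S100g, Papss2 and Slc40a1, the iron exporter ferroportin (45.98 and 5.35 CPM, log2 ratio -3.10). Gata4, the regulator of proximal identity, had 43.2 and 23.2 CPM, log2 ratio -0.90, and the fructose transporter Slc2a5 58.8 and 34.2 CPM, log2 ratio -0.78. Leap2, a liver and proximal gut peptide (249 and 368 CPM, log2 ratio 0.57), and Cyp3a11 (143 and 180.2 CPM, log2 ratio 0.33) were above 0. Cybrd1 and Trpv6, markers of the duodenum, had at most 4 UMIs in either set. In the iron and calcium list, 0 of 8 measured genes were called higher and 2 lower (median log2 ratio -0.80). These were again S100g and Slc40a1, already counted among the proximal genes. The ferritin heavy chain Fth1, the most abundant member, was at 12810 CPM in WT and 8754 CPM in KO (log2 ratio -0.55, -0.57 to -0.53). The segment of gut that the cells came from is not in the labels, and its part in these differences was not tested.

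Metabolic lists had 0 genes called higher, and their shares called lower lay near the 17.3% of all genes. Of all 7778 genes, 5199 were below 0. For retinoid handling without Rbp2, 0 of 6 measured genes were called higher and 1 lower (median log2 ratio -0.57), which was Lrat, which esterifies retinol (24.2 and 11.4 CPM, log2 ratio -1.09). Of detoxification enzymes, 0 of 24 measured genes were called higher and 4 lower (median log2 ratio -0.34). Over all cells this median was near that of all genes, but it was -0.81 and -0.76 in the 2 bins of rule gene content, against -0.25 and -0.25 for all genes. Those called lower were Gsta2, Cyp2c66 (70.1 and 31.4 CPM, log2 ratio -1.16), Ugt2b34 (353 and 170.1 CPM, log2 ratio -1.05) and the efflux pump Abcb1a (65.5 and 19.2 CPM, log2 ratio -1.77). The sulfotransferase Sult1b1 had the highest ratio of the list (616 and 889 CPM, log2 ratio 0.53). For fatty acid oxidation and ketogenesis, 0 of 15 measured genes were called higher and 3 lower (median log2 ratio -0.45). These were the gatekeeper of mitochondrial fatty acid entry Cpt1a (50.4 and 10.7 CPM, log2 ratio -2.24), the trifunctional enzyme subunit Hadha (352 and 145 CPM, log2 ratio -1.28) and their regulator Ppara (22.5 and 8.35 CPM, log2 ratio -1.43). Cpt1a in KO enterocytes (10.7 CPM) did not exceed tuft cells (18.8 CPM).

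Immediate early genes, which respond within minutes to growth factors and stress, had the lowest median of all lists. Of 12 measured genes 9 were called lower and 0 higher (17.3% of all genes were called lower, median log2 ratio -1.65). Jun went from 247 to 34.2 CPM (log2 ratio -2.85, -3.07 to -2.63), Egr1 from 85.5 to 11.9 CPM and Fos from 172 to 47.3 CPM. Junb, Jund and Ier3 did not reach the limit, Jund being level (174 and 169.9 CPM). The list summed to 1194 CPM in WT and 478 CPM in KO. Tuft cells showed 1015 and 885 CPM and all other cells that passed the quality limits 842 and 455 CPM. The sum was thus lower in KO in all 3 sets of cells, of which the last contains the tuft cells, and the cause was not tested.

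Of intestinal transcription factors, 0 of 24 measured genes were called higher and 6 lower (median log2 ratio -0.69). The genes called lower included Hnf4g, Onecut2 (171 and 40.8 CPM, log2 ratio -2.07), Ppara, Gata6 (111 and 52.8 CPM, log2 ratio -1.07) and the vitamin D receptor Vdr (203 and 97.7 CPM, log2 ratio -1.05). Hnf4a, the partner of Hnf4g (119.6 and 68.99 CPM, log2 ratio -0.79), was within 2-fold, and Cdx1 (40.9 and 41.3 CPM) and Cdx2 (85.9 and 102 CPM), which set intestinal identity, were nearly level. In the list of Wnt and β-catenin genes 1 of 11 measured genes were called higher and 3 lower (median log2 ratio -0.90). All genes had a median of -0.33. Genes with summed exons of 4369 to 6840 bases had a median of -0.53, and those from 6841 bases a median of -0.86. The measured genes of this list had a median of 6558 bases, near the border of these classes, and the part of length was not tested. Apc (61.1 and 16.04 CPM, log2 ratio -1.93), Axin2 (15.8 and 6.85 CPM, log2 ratio -1.21) and Rnf43 (12.8 and 5.85 CPM, log2 ratio -1.13), which restrain the pathway, were called lower, and the cyclin Ccnd1 was called higher (12.1 and 24.4 CPM, log2 ratio 1.01). In KO, Axin2, Rnf43 and Ccnd1 were all below the level in tuft cells (47.1, 37.7 and 56.5 CPM), where 1 UMI is worth 9.42 CPM. Whether tuft cells make these transcripts themselves was not tested, and no change within enterocytes is read from them.

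In the list of microvillus cytoskeleton, keratins and junctions, 0 of 19 measured genes were called higher and 4 lower (median log2 ratio 0.06). The adherens and tight junction genes Tjp1 (37.9 and 11.03 CPM, log2 ratio -1.78), Cdh1 (172 and 74.7 CPM, log2 ratio -1.20), Jup (51.8 and 23.9 CPM, log2 ratio -1.12) and Ctnna1 (202 and 100.1 CPM, log2 ratio -1.01) were called lower. The claudin Cldn7 and the keratin Krt20 were above 0, with Cldn7 at 1128 and 1781 CPM and Krt20 at 628 and 933 CPM. The median of this list turned negative at a stricter mitochondrial limit (-0.05) and in both bins of rule gene content described below (-0.15 and -0.14). For MHC genes, 1 of 15 measured genes were called higher and 1 lower (median log2 ratio 0.47), the class II chain H2-Aa being called higher (372 and 764 CPM, log2 ratio 1.04) and the class II regulator Ciita lower (16.7 and 6.18 CPM, log2 ratio -1.44). H2-Aa too was under 2-fold in both bins (0.72 and 0.71). All 5 class II genes H2-Aa, H2-Ab1, H2-Eb1, H2-DMa and Cd74 had ratios above 0, Cd74 with 1211 and 2358 CPM, log2 ratio 0.96, and so had B2m (1087 and 1631 CPM, log2 ratio 0.59).

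Housekeeping groups were looked at beside the rest. The median log2 ratio of 81 cytosolic ribosomal protein genes was 0.08, and 0 were called higher and 1 lower. It turned negative in 4 of the alternatives, so no direction is given. Of 13 mitochondrially encoded genes 5 were at least 2-fold lower (median -0.53), with mt-Atp6 at 24806 and 17142 CPM and mt-Nd3 at 1049 and 276 CPM. The rule limited the summed share of these genes, so these values are a description only. That limit left out 155 KO and 10 WT barcodes that had at least 1500 UMIs and met the other limits. Gm42418, a locus that overlaps ribosomal RNA sequence, was at 16899 and 1942 CPM, and tuft cells showed 22627 and 2194 CPM. Malat1, a nuclear RNA, was at 6731 and 4052 CPM. The ratio of Gm42418 in enterocytes was thus near that in tuft cells.

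**Figure D3:**
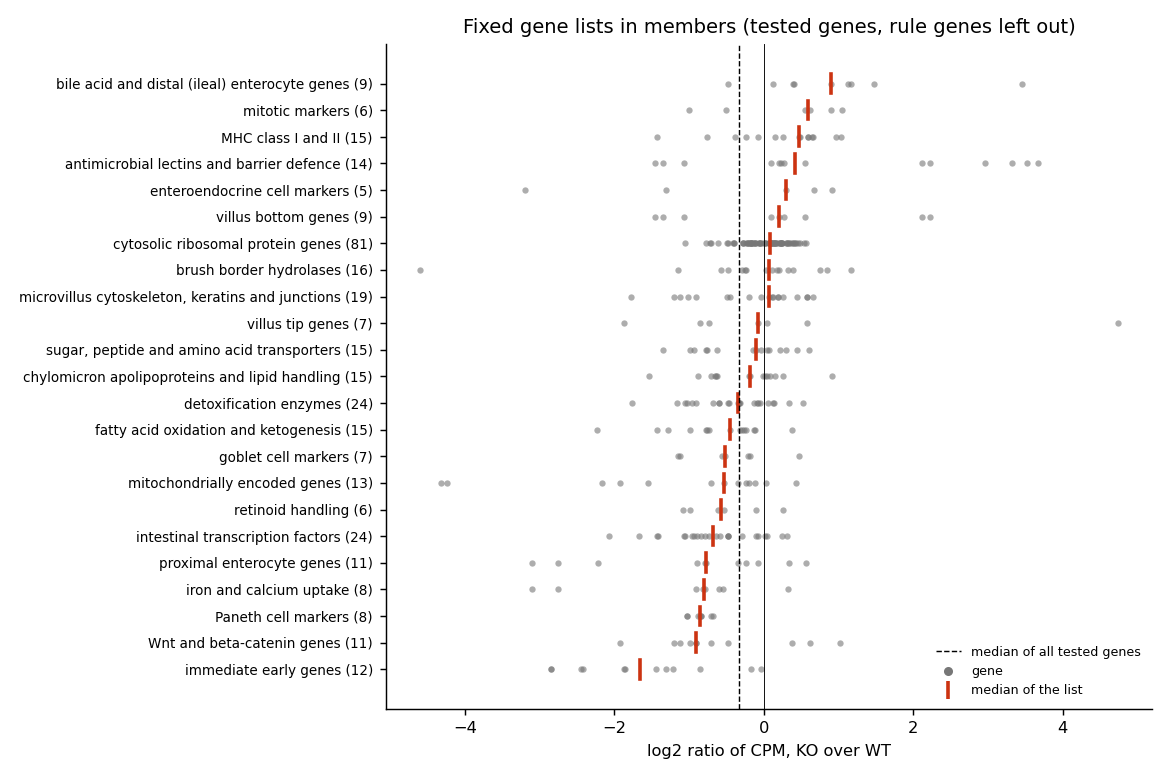
Log2 ratio of KO to WT for each measured gene (grey points) and the median (red bars) of each fixed list with at least 5 measured genes, rule genes left out, with the number of genes in brackets. The dashed line is the median of all 7778 measured genes (-0.33), and immediate early genes lie lowest while bile acid and distal genes lie highest.

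The enterocytes low in Fabp6 differed between the genotypes in their content of the 7 rule genes, so KO and WT were also set side by side at like content of the 7 rule genes. Levels here are per 1000000 UMIs outside those 7 genes. Cells with 3 to 6% of their UMIs from the 7 genes were 444 in WT and 163 in KO, cells with 6 to 12% were 346 and 287, and cells with 12% or more were 6 and 180, which is too few in WT for a comparison. The median ratio of all measured genes was -0.25 and -0.25 in the 2 lower bins.

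Several differences were of like size in both bins. For Reg3b the log2 ratio was 2.32 (2.30 to 2.35) in the lower bin and 2.65 (2.62 to 2.67) in the upper one, and for Ctnnb1 -0.79 (-1.03 to -0.56) and -0.87 (-1.10 to -0.64). Pigr (-1.40 and -1.45), Hnf4g (-1.66 and -1.60) and Cd74 (0.78 and 0.85) were nearly the same in both. Reg1, Gsta1 and S100g were not. For Reg1 the ratio was -2.16 (-2.23 to -2.09) in the lower and -0.61 (-0.65 to -0.57) in the upper bin, for Gsta1 -1.11 (-1.20 to -1.02) and -0.18 (-0.25 to -0.12), and for S100g -3.91 (-4.24 to -3.59) and -1.72 (-1.92 to -1.52). The KO level of Reg1 was 1257 in the lower bin and 4136 in the upper, while WT had 5618 and 6311. The KO cells with the least of the 7 rule genes were thus those poorest in Reg1, Gsta1 and S100g.

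Lists changed with the bins as well. Lipid handling outside the rule had a median of -0.64 and -0.29, brush border hydrolases -0.22 and -0.25, and detoxification enzymes -0.81 and -0.76, each lower than the value over all cells. Distal genes without Fabp6 had 0.70 and 0.46 on the CPM scale, and proximal genes -1.01 and -0.69. Across single cells Reg1 went with Papss2, Gsta1 and Fth1 in both genotypes (Spearman 0.56, 0.52 and 0.56 in WT and 0.49, 0.52 and 0.52 in KO, over cells that share library and denominator). It did not go with Reg3b (-0.25 in WT and 0.012 in KO).

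**Figure D4:**
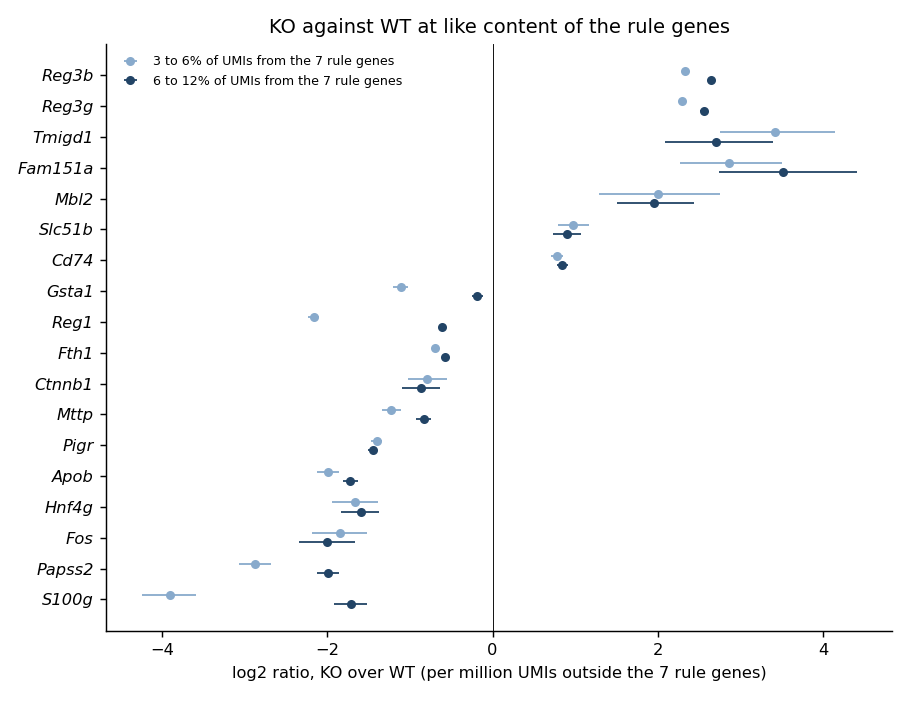
Log2 ratio of KO to WT for 18 genes within enterocytes that had 3 to 6% (light blue, 444 WT and 163 KO cells) or 6 to 12% (dark blue, 346 and 287 cells) of their UMIs from the 7 rule genes, with 95% counting intervals. Reg3b, Reg3g, Ctnnb1 and Pigr lie close together in both bins, and Reg1, Gsta1, Papss2 and S100g lie further from 0 in the lower bin.

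In the KO matrix the cells low in Fabp6 could be set beside other enterocytes, as a description, since the groups were formed on genes of the same cells. These were the 153 at or above the Fabp6 limit but under that of the 4 tip genes, and the 80 at or above the latter, whatever their Fabp6. WT had only 12 and 3 of these and was not compared. The following levels are given in the order low in Fabp6, Fabp6-high and tip-like. Fabp1 had 19095, 738 and 1204 CPM and Rbp2 14171, 1813 and 5222 CPM, whereas Apoa1 had 23828, 29670 and 51073 CPM. The cells low in Fabp6 thus stood out by the liver-type carrier and the retinol carrier, and were not highest in the apolipoprotein.

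Genes outside the rule separated these groups too. Reg1 had 2628, 46.1 and 34.9 CPM and Gsta1 1462, 125 and 14.96 CPM, so that both were far higher in the cells low in Fabp6 among these 3 groups. Leap2 (368, 57.6 and 32.4 CPM), Mbl2 (104, 23.03 and 4.99 CPM), Dnase1 (373, 91.2 and 119.7 CPM) and Lct (304, 64.7 and 102 CPM) were also highest there. Mbl2 and Dnase1 were among the genes higher in KO than in WT, and were lower in the other KO groups. The distal genes ran the other way, with Slc10a2 at 10.2, 589.9 and 506 CPM, Slc51b at 412, 1776 and 1658 CPM, and Cubn was highest in the Fabp6-high cells alone (33.6, 138 and 34.9 CPM). The tip-like cells were taken whatever their Fabp6, which had a median of 0.136% and an upper quartile of 2.64% of UMIs. Their distal levels are thus those of cells low and high in Fabp6 together. Tmigd1 (102, 2724 and 2101 CPM), Slc34a2 (89.5, 441 and 538 CPM) and Prss30 (98.1, 255 and 369 CPM), all higher in KO than in WT within the cells low in Fabp6, were higher still in the other 2 groups.

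The antimicrobial genes split the tip-like cells off. Reg3b had 33121, 30772 and 6675 CPM and Reg3g 10646, 12609 and 4033 CPM, so the Fabp6-high cells were close to the cells low in Fabp6 and the tip-like cells were lower. Pigr had 1445, 957 and 386 CPM. Krt20 (933, 1828 and 5139.9 CPM), Klf4 (55.96, 194 and 546 CPM) and Nt5e (0.668, 0.886 and 162 CPM), genes of the villus tip, were highest in the tip-like cells. Median log2 ratios to the cells low in Fabp6 were 1.99 in Fabp6-high and 0.92 in tip-like cells for distal genes, -1.76 and -1.71 for proximal genes, -0.59 and -2.54 for villus bottom genes and 0.65 and 2.24 for villus tip genes, beside -0.12 and -0.47 for all genes. Against the proximal medians, S100g was higher in both other groups (85.03, 172 and 120 CPM). Ctnnb1 itself had 109, 166 and 269 CPM.

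**Figure D5:**
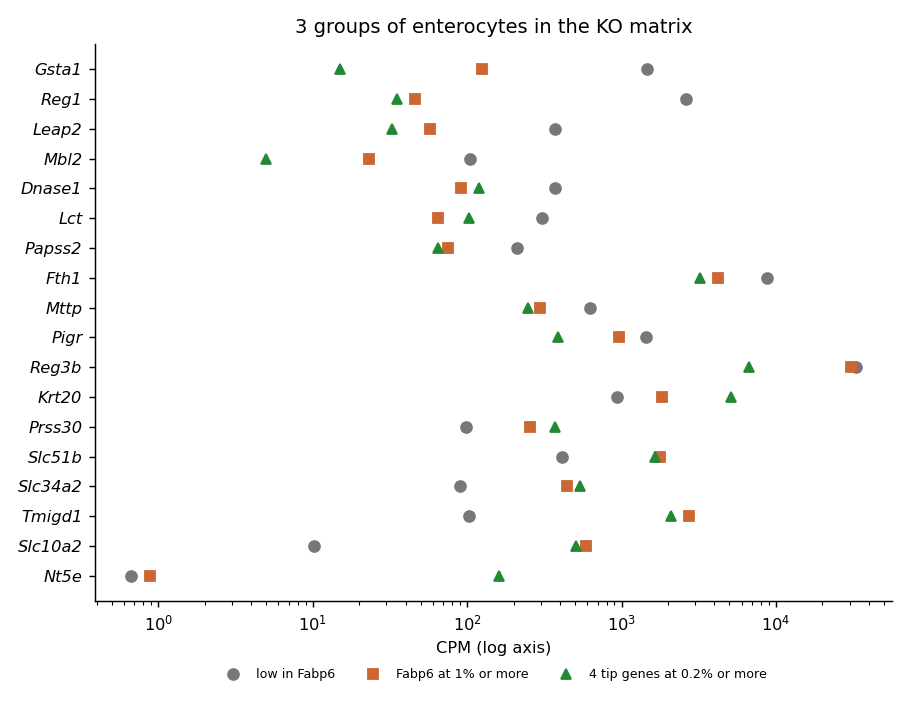
Levels of 18 genes outside the rule in CPM (log axis) in the KO matrix. Grey circles are 630 enterocytes low in Fabp6 and orange squares 153 with Fabp6 at 1% or more and the 4 tip genes under 0.2%. Green triangles are 80 with the 4 tip genes at 0.2% or more, whatever their Fabp6. Gsta1, Reg1 and Leap2 are highest in the cells low in Fabp6, and Slc51b, Slc34a2, Tmigd1 and Slc10a2 are lowest there.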

How the data were processed

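Single epithelial cells were profiled with the 10x Genomics 3′ chemistry (the study's methods give both version 2 and version 3 for chip and kit). The authors deposited 1 UMI count matrix per genotype. The submitters' processing notes name Cell Ranger 2.1.1 and the mm10 build, while the matrix headers carry Cell Ranger 4.0.0, so the version behind the counts is uncertain. The counts were unnormalized, with replicates pooled, and were used as deposited.

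Cells were chosen by the shares given in the report, from 15987 WT and 12763 KO barcodes. The cell set and all gene lists were chosen with earlier results of these data known. UMIs were summed per genotype and expressed as CPM with exact Poisson intervals, cell shares with exact binomial (Clopper-Pearson) intervals, and ratios with exact conditional binomial intervals, all at 95% and for counting error only. Because each genotype was 1 matrix, no test and no p-value was computed. Genes with at least 50 UMIs over both genotypes entered the lists, and a 2-fold ratio with an interval clear of 0 was the call. Genes named singly were the 12 highest and 12 lowest ratios among genes with at least 50 CPM in the higher genotype and at least 3 times the tuft cell level there and the same sign in the mean of per-cell CPM, apart from rule and mitochondrial genes. Genes named within a list were all its calls plus members picked for their role after values were seen. Some genes of these sets are counted but not reported here by name. Tuft cells (at least 0.3% of UMIs from 7 tuft genes and under 3% from the 7 enterocyte genes) gave the level of free RNA. For shares of cells with a UMI, each cell was thinned to 1500 UMIs with a fixed seed. Gene positions and lengths came from GENCODE M21 (27645 of 27998 identifiers, 98.7%) and promoter sequence from RefSeq (GRCm38.p6). Alternatives changed the cell limits, the denominator, the thinning and the minimum of UMIs per gene. Python 3.11.15 with numpy 2.4.6, scipy 1.17.1, pandas 2.3.3 and matplotlib 3.10.9 was used, and the interval code was tested on simulated data.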

Additional observations from a re-analysis of the deposited data

Results flagged for a closer look

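Barcodes outside the quality limits also held cells that met the other limits for mature enterocytes low in Fabp6, and more often in KO than in WT. Among barcodes with at least 1500 UMIs but over 30% mitochondrial UMIs, 155 of 1786 in KO (8.68%, 7.41% to 10.1%) met them, against 10 of 672 in WT (1.49%, 0.716% to 2.72%). Among barcodes under 1500 UMIs that met the mitochondrial limit, they were 133 of 2777 in KO (4.79%, 4.03% to 5.65%) and 36 of 2507 in WT (1.44%, 1.01% to 1.98%). These barcodes entered no comparison, and the intervals cover counting error only.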

How the results depend on the processing

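No paired analysis was possible because no file maps cells to the 4 samples of a genotype. Ctnnb1 kept its sign in 15 of 15 alternatives (-0.96 to -0.79). The 24 singly named genes also kept their sign, which their choice by size largely fixed. Alternatives that changed only the minimum of UMIs per gene could not move the ratio of a single gene, Ctnnb1 included. The log2 ratio of the cell share (0.51) was 1.004 with at least 5% of UMIs from the 7 genes, 0.30 with Fabp6 under 0.05% and 0.26 without a UMI minimum in the denominator. Counts of genes at least 2-fold higher and lower were 78 and 561 after thinning, 68 and 577 with at least 200 UMIs per gene, and 84 and 866 in cells with 6 to 12% from the 7 genes, and with at least 1 UMI per gene 256 were higher. The median of all genes ran from -0.42 to -0.20.

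List medians moved as follows. Detoxification was -0.44 with at least 5% from the 7 genes, -0.29 without genes over 1% of UMIs in the denominator, -0.47 for per-cell CPM, -0.41 after thinning, -0.81 in cells with 3 to 6% from the 7 genes and -0.78 in those with 6 to 12%. Antimicrobial genes were at 0.66 with at least 5%, 0.53 for per-cell CPM, 0.17 after thinning and 0.24 with at least 200 UMIs. Distal genes were at 0.69 with at least 5%, 0.59 with Fabp6 under 0.5%, 0.52 under 0.05%, 0.66 with tip genes under 0.1%, 0.78 after thinning, 0.65 with at least 200 UMIs, and 0.70 and 0.46 in the 2 bins. Proximal genes were at -0.47 after thinning, lipid handling at -0.64 in the lower bin, villus tip genes at -0.82 and -0.81 in the bins, and brush border genes at -0.22 and -0.26 in the 2 bins. Medians near 0 changed sign. Ribosomal genes were at -0.11 for per-cell CPM, -0.13 after thinning, -0.13 without the 5% of cells with most UMIs and -0.0086 with other-type markers at most 6%. Transporters were at 0.054 for per-cell CPM and 0.045 after thinning, microvillus genes at -0.046 with at most 15% mitochondrial UMIs and -0.15 and -0.14 in the bins, and in the lower bin goblet markers were at 0.10 and stem cell markers at 0.11. The cause of these shifts was not tested. The bins, Fabp6 under 0.05% and other-type markers at most 6% were chosen after seeing the data, the last because a limit of 2% left 0 WT cells and gave no value. Depth limits genes of low level most, since 1 UMI is 0.232 CPM over the WT cells and 0.167 CPM over the KO cells.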

Other observations

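Secreted products outside the fixed lists were also abundant in mature enterocytes low in Fabp6. Prap1, a proline-rich acidic protein of the gut, stood at 3663 CPM in WT and 6373 CPM in KO (log2 ratio 0.80, 0.77 to 0.83) and was found after thinning in 98.7% of WT cells (97.7% to 99.4%) and 100% of KO cells (99.4% to 100%). Spink1, an inhibitor of trypsin, stood at 1882 CPM in WT and 3829 CPM in KO (log2 ratio 1.02, 0.99 to 1.06) and was found in 85.6% of WT cells (82.9% to 87.9%) and 97.5% of KO cells (95.9% to 98.5%). Tuft cells had 168 and 292 CPM of Prap1 and 485 and 979 CPM of Spink1. Both genes were picked after their values were seen.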
